A study of Mus musculus with 24 samples.

Results

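The S100 genes encode small calcium-binding proteins with a pair of EF hands. The 8 described here are S100a1, S100a4, S100a6, S100a8, S100a9, S100a10, S100a11 and S100a13. They were taken by gene symbol from the table of bead-array intensities, which holds 17951 genes, and all 8 had a row. Of these, 7 were detected on enough arrays to be tested (a detection p under 0.01 on at least 3 of 24 arrays, as held for 10371 genes or 57.8%), and S100a4 was not. The 8 genes were selected on their measured log2 differences between mutant and control kidneys, which were in view when the set was drawn up. Those differences are therefore given as measurements with their errors, with no p-value, and the number of them past the threshold used for all genes is a description and no test. Tests are given for the comparison of Nes-Cre with wild type kidneys and for genes outside the 8.

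The arrays measured total RNA of whole mouse kidneys of E18.5 embryos, in 8 groups of 3, to compare the loss of Wt1 at 3 stages of nephron formation. Every conditional mutant was homozygous for the floxed Wt1co/co allele. Nes-Cre Wt1co/co carried in addition the Nes-Cre transgene, which is active in the nephrogenic mesenchyme, and recombination was incomplete, so that some nephrons escape. Wnt4+/CreGFP Wt1co/co carried a Cre knock-in at Wnt4, active from the pre-tubular aggregate onwards, and Pax8+/Cre Wt1co/co a Cre knock-in at Pax8, active in condensing mesenchyme, nephrons and the ureteric bud. The knock-in alleles were heterozygous, and their controls, Wnt4+/CreGFP and Pax8+/Cre, carried them too without the floxed allele. The other groups were Wt1co/co without Cre, Nes-Cre without the floxed allele, and wild type. The labels give the strain of all groups as C57BL/6 and the methods of the study a mixed background with 129Ola. The arrays fell into 4 sets of 6, each normalised by the authors to its own control: Wt1co/co with Nes-Cre Wt1co/co, wild type with Nes-Cre, and the Wnt4 and Pax8 pairs. Each mutant was compared with the control of its own set. Nes-Cre Wt1co/co therefore differs from its control, Wt1co/co, by the Nes-Cre transgene as well. The study instead set each mutant against kidneys with its Cre alone, which for this mutant are the Nes-Cre kidneys of another set. The Wt1 gene itself was not analysed here. No source states whether embryos of a group shared a litter.

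As background, most S100 proteins form dimers inside the cell and expose a binding face when calcium rises. S100A8 and S100A9 pair to form calprotectin, the main cytosolic protein of neutrophils, which also occurs in monocytes and in injured epithelia. Once released, it is sensed by the receptor RAGE and by TLR4. S100A10 is the exception that does not need calcium, because it is locked in the active form, and it joins annexin A2 at the plasma membrane. S100A11 binds annexin A1, S100A6 binds the calcyclin-binding protein and annexin A11, S100A1 is best known in heart muscle, where it acts on the calcium pump SERCA2, and S100A13 takes part in the unconventional release of FGF1. In mice these genes lie together on chromosome 3.

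The promoters of S100a8, S100a9 and S100a6 are shown first, because these 3 genes gave the differences that the measurements below turn on. Each run covers 250 bases before and 50 after the transcription start in RefSeq, from the table built on GRCm38.p6, 5′ to 3′ on the strand of the gene. Capitals mark matches to 4 short motifs searched on both strands, the TATA box (TATAAA), the core bound by C/EBP factors (TTGCNNAA), the AP-1 site (TGANTCA) and the E box (CACGTG). S100a8 lies at chr3:90668821-90669120 on the plus strand, S100a9 at chr3:90695672-90695971 on the minus strand and S100a6 at chr3:90612644-90612943 on the plus strand.
S100a8: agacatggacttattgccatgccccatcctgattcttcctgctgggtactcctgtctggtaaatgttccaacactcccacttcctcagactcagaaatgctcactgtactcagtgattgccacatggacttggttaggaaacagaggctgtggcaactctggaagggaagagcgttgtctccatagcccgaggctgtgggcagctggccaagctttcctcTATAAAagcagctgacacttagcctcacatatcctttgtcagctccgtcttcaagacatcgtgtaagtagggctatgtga
S100a9: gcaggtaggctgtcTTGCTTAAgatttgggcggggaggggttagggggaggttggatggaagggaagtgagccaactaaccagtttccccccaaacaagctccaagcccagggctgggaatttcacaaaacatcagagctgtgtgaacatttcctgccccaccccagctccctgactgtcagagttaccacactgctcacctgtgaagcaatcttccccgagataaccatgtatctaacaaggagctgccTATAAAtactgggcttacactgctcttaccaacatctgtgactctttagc
S100a6: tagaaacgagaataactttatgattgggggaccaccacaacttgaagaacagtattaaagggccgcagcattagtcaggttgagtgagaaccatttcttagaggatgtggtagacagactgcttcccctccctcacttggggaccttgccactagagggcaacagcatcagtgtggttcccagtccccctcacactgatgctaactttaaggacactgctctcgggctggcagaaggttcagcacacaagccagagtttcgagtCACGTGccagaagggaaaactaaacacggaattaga
The capitals in S100a8 are a TATAAA that begins 30 bases before the start. Those in S100a9 are a TTGCTTAA that begins 236 bases before the start and a TATAAA at base 1 of the transcript. Those in S100a6 are a CACGTG that begins at base 15 of the transcript. Among 32851 RefSeq promoters of the same length, TATAAA occurred in 13.6%, TTGCNNAA in 10.8%, TGANTCA in 7.81% and CACGTG in 7.15%. Of the 7 members with a promoter in the table, TATAAA occurred in 3 (S100a4, S100a8 and S100a9), CACGTG in 2 (S100a6 and S100a11), TGANTCA in 1 (S100a11, at a pair of places) and TTGCNNAA in 1 (S100a9). S100a10 was not in the table.

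S100a1 and S100a13 start head to head, 105 bases apart on opposite strands, so that their promoter windows share 204 bases. The shared stretch, chr3:90514281-90514484 as read on the plus strand, is shown because the levels of these neighbours are compared below, and it holds none of the 4 motifs.
S100a1 and S100a13: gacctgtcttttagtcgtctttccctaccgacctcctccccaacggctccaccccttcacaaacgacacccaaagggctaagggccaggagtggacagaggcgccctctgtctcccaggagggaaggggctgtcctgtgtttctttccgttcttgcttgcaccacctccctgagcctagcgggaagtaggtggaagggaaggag

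Most arrays agreed closely within a group, and 1 stood apart. Nes-Cre Wt1co/co replicate 1 correlated with its own replicates at r = 0.909 and 0.912 over the genes tested, whereas the other two gave 0.992. It also had the highest summed level of striated muscle markers (43916 against 1184 to 1385 in Wt1co/co), the highest sum of urothelium markers (24643) and the lowest of proximal tubule markers (1669). The lowest muscle sum in this mutant, 2176, also lay above those of Wt1co/co. The methods say that 1 sample of this group failed quality control without saying which. Results of this mutant are therefore given with and without replicate 1. The wild type and Nes-Cre set had a higher background (152 to 181 intensity units against 48.1 to 69.9 in the other sets) and fewer genes detected (7458 to 8262 against 8216 to 9681), so that levels set across sets cannot be told apart from the set. Proximal tubule markers checked the tissue in every control, with sums from 14255 to 24024, and 6, 7 and 4 of the 8 tested were called lower in the Nes-Cre, Wnt4 and Pax8 mutants, with sums of 1669 to 11375 in Nes-Cre Wt1co/co, 3414 to 5050 in Wnt4+/CreGFP Wt1co/co and 6134 to 7033 in Pax8+/Cre Wt1co/co. Over all genes, 13.1%, 8.91% and 3.68% were called lower in the Nes-Cre, Wnt4 and Pax8 mutants. In whole kidneys, fewer cells of a type and less RNA per cell cannot be told apart.

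**Figure D1:**
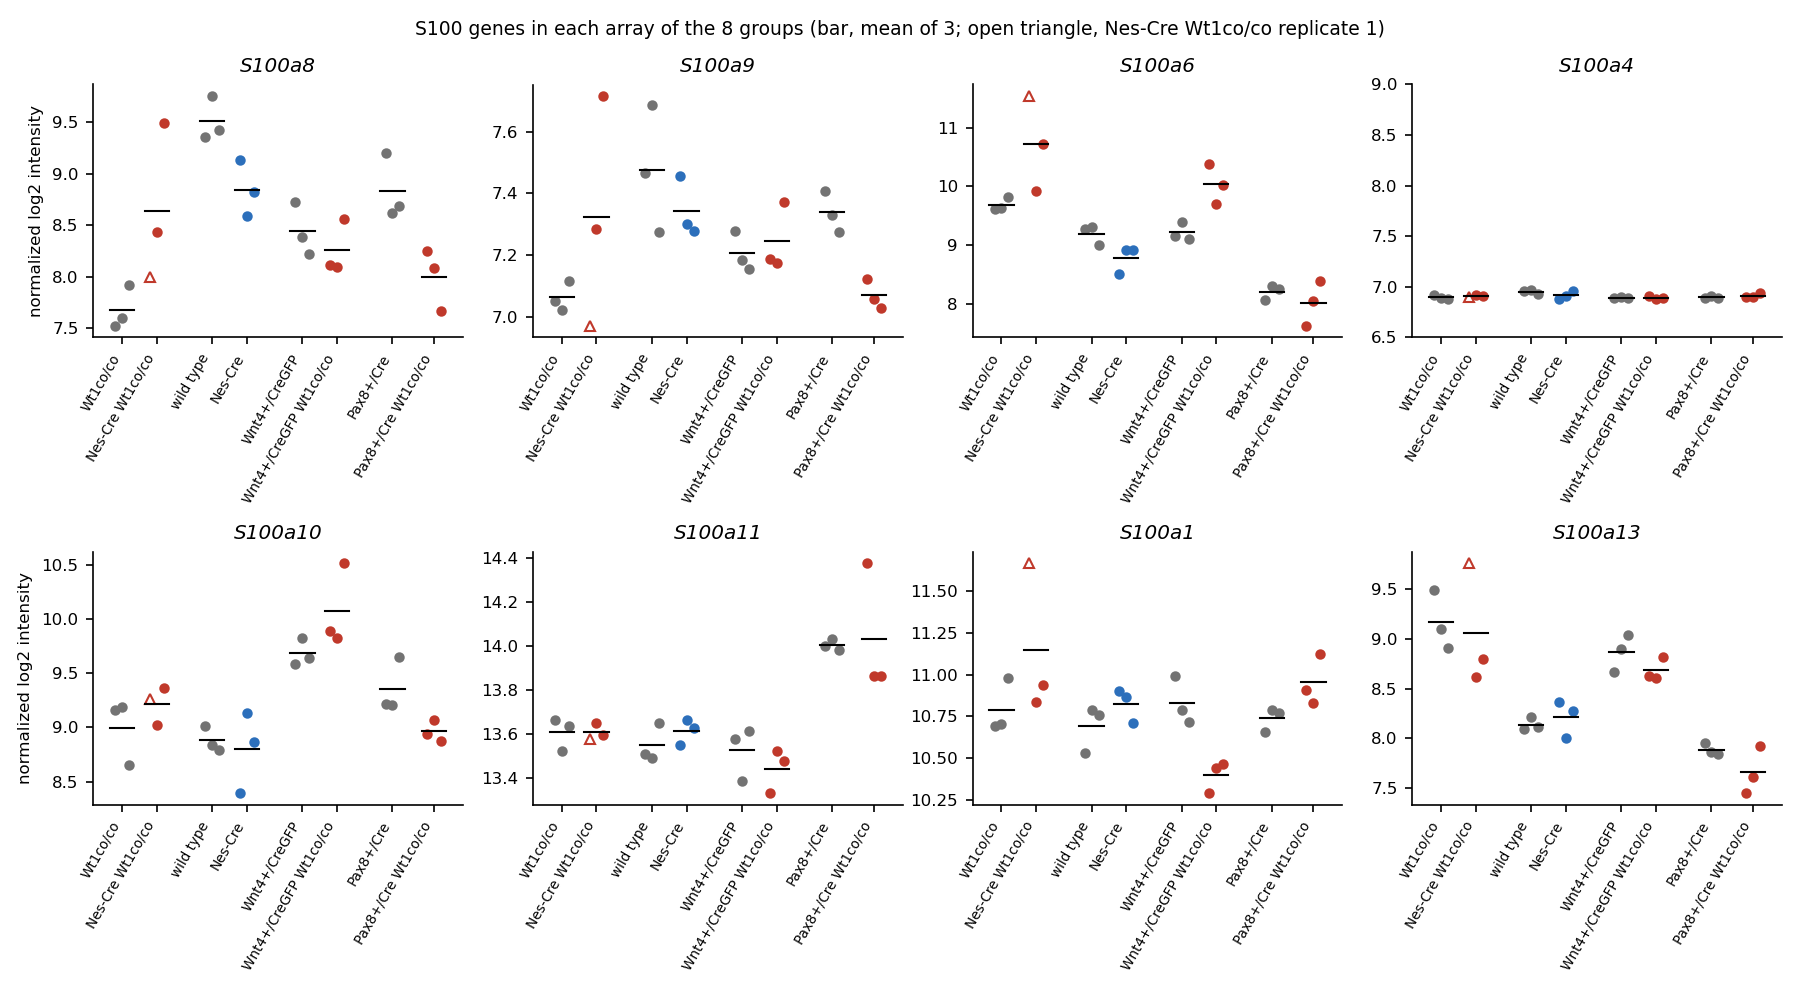
Normalised log2 level of each of the 8 S100 genes (y axis, own scale per gene) on every array, by group (x axis). Points are arrays, bars the mean of 3, and the open triangle is Nes-Cre Wt1co/co replicate 1. S100a8 ran from 7.52 to 9.76 and S100a6 from 7.63 to 11.54, while S100a4 stayed between 6.88 and 6.97.

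S100a8, a subunit of calprotectin, was higher in Nes-Cre Wt1co/co and lower in Pax8+/Cre Wt1co/co than in the kidneys of their own sets. Its normalised log2 levels in Wt1co/co were 7.52, 7.60 and 7.92 (replicates 1, 2 and 3, as in all lists of values), and in Nes-Cre Wt1co/co 8.00, 8.43 and 9.49. All 3 mutant kidneys lay above all 3 controls, and replicate 3 stood highest. The difference was +0.96 on the log2 scale (SE 0.29), 1.95-fold, and +1.29 (SE 0.28), 2.45-fold, without replicate 1. With all arrays it ran from +0.51 in the authors' ratio values to +1.58 with arrays weighted by their fit to the group means. The median of all genes in those ratio values was -0.19. In Pax8+/Cre the levels were 9.20, 8.62 and 8.69, and in Pax8+/Cre Wt1co/co 8.24, 8.08 and 7.67. Here every mutant kidney lay below every control, with a difference of -0.84 (SE 0.29), 1.79-fold lower. In Wnt4+/CreGFP the levels were 8.72, 8.38 and 8.22 and in its mutant 8.12, 8.09 and 8.56, so that these groups overlapped and differed by -0.19 (SE 0.29).

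With all arrays, the sign for S100a8 in the Nes-Cre mutant depended on the control chosen, and without replicate 1 it did not. Wild type kidneys had the highest mean of the series, at 9.35, 9.76 and 9.43, although Nes-Cre Wt1co/co replicate 3 lay above 2 of them, and Nes-Cre kidneys followed at 9.13, 8.59 and 8.82. Against Nes-Cre, the Nes-Cre Wt1co/co kidneys differed by -0.21 (SE 0.29), or +0.12 without replicate 1, and the groups overlapped. That comparison, with the control that the study describes, crosses 2 array sets. When the difference between Nes-Cre and wild type was subtracted from that between Nes-Cre Wt1co/co and Wt1co/co, so that the sets cancel, the value was +1.63 (SE 0.41), and +1.96 (SE 0.38) without replicate 1. By group mean, the order of S100a8 ran from wild type (9.51) through Nes-Cre (8.85), Pax8+/Cre (8.83), Nes-Cre Wt1co/co (8.64), Wnt4+/CreGFP (8.44), Wnt4+/CreGFP Wt1co/co (8.26) and Pax8+/Cre Wt1co/co (8.00) to Wt1co/co (7.68). Wild type did not overlap with the next group, and all other neighbours in this order overlapped.

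S100a9, the partner of S100a8 in calprotectin, gave smaller differences of the same signs in the Nes-Cre and Pax8 mutants, at levels near background. It read 7.05, 7.02 and 7.11 in Wt1co/co and 6.97, 7.28 and 7.72 in Nes-Cre Wt1co/co. Replicate 1 lay below all the controls and the other two above them. The difference was +0.26 (SE 0.13) with all arrays and +0.44 without replicate 1. Pax8+/Cre read 7.41, 7.33 and 7.28, and its mutant 7.12, 7.06 and 7.03, apart and lower by -0.27 (SE 0.13). The size of both differences rested on the background step. With no background correction they were +0.44 in the Nes-Cre and -0.59 in the Pax8 mutant, and when background was taken as the intensity at detection p 0.5 they were +0.64 and -0.94. In the Wnt4 pair the controls read 7.28, 7.19 and 7.15 and the mutants 7.19, 7.18 and 7.37. They overlapped, and the difference of +0.04 changed sign with the processing. Wild type had the highest mean (7.48) and Wt1co/co the lowest (7.06). Of the neighbours in the order of means, Wnt4+/CreGFP (7.21) and Pax8+/Cre Wt1co/co (7.07), from different sets, were the only pair that did not overlap.

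The arrays on which S100a8 was high within its set were those on which S100a9 was high. After the mean of the 6 arrays of each set was subtracted, the pair correlated at r = 0.89 over 24 arrays, and at 0.91 over 23 without replicate 1. Of the other 20 pairs among the 7 genes, S100a6 with S100a10 had the highest r, at 0.48. These correlations are descriptions across arrays that share sets and groups. Among 10364 other genes, the 3 most like S100a8 were EG433016 (named Cstdc4 in RefSeq, r = 0.94), Stfa1 (0.77) and Stfa2 (0.73), and those most like S100a9 were EG433016 (0.91), the haptoglobin gene Hp (0.76) and Stfa2 (0.76). EG433016, Stfa1 and Stfa2 belong to the stefin A family of cysteine protease inhibitors, whose copies are so alike that a probe may read several. Stfa1 read 8.56, 8.42 and 8.17 in Pax8+/Cre and 7.14, 7.03 and 7.31 in its mutant, apart and lower by -1.22. In Wt1co/co it read 7.04, 7.05 and 7.17 and in Nes-Cre Wt1co/co 7.47, 7.31 and 7.83, also apart and in the other direction, as for S100a8. The likeness did not hold throughout. Stfa1 was apart and lower by -0.42 in the Wnt4 mutant, where S100a8 overlapped. In Nes-Cre Wt1co/co against Nes-Cre kidneys Stfa1 was apart and lower by -1.06, and S100a8 overlapped. That comparison crosses array sets, so it cannot be read against correlations from which the set means were taken.

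Markers of the blood cells that carry calprotectin were read beside these levels, and their part in the result was not tested. The neutrophil granule genes Mpo, Ctsg, Mmp8 and Cd177 were detected on 0 of 24 arrays, as were Cebpe, Fcnb, Chi3l3, Itgb2l, Padi4 and Stfa3, while Ngp, Ltf and Csf3r were detected on 1 and Camp on 2. Others of the list were detected more widely, Lcn2 and Stfa1 on 24, Prtn3 on 23, Mmp9 on 21, Pglyrp1 and Stfa2 on 16 and Retnlg on 12. Of 24 neutrophil and granule genes listed, 21 were in the table and 7 were tested. None of the 7 was called in Nes-Cre Wt1co/co (1 without replicate 1) or in Wnt4+/CreGFP Wt1co/co, and Stfa1 alone was lower in Pax8+/Cre Wt1co/co. The summed level of the 7 was 1034 to 1524 in Nes-Cre Wt1co/co against 1053 to 1223 in Wt1co/co, and 1199 to 1390 in Pax8+/Cre Wt1co/co against 1292 to 1499 in Pax8+/Cre. Monocyte and macrophage genes were read in the same way. Of 17 tested, 14 were higher in Nes-Cre Wt1co/co (13 without replicate 1; sums 5561 to 7740 against 3462 to 3647), and in Pax8+/Cre Wt1co/co 1 was higher and 0 lower (sums 4510 to 5329 against 4001 to 4317), and in Wnt4+/CreGFP Wt1co/co 0 were higher and 2 lower. Over all genes, 11.1% were called higher in the Nes-Cre mutant and 3.28% in the Pax8 mutant, and 8.91% lower in the Wnt4 mutant. Ptprc, the pan-leukocyte gene, was detected on 0 of 24 arrays.

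**Figure D2:**
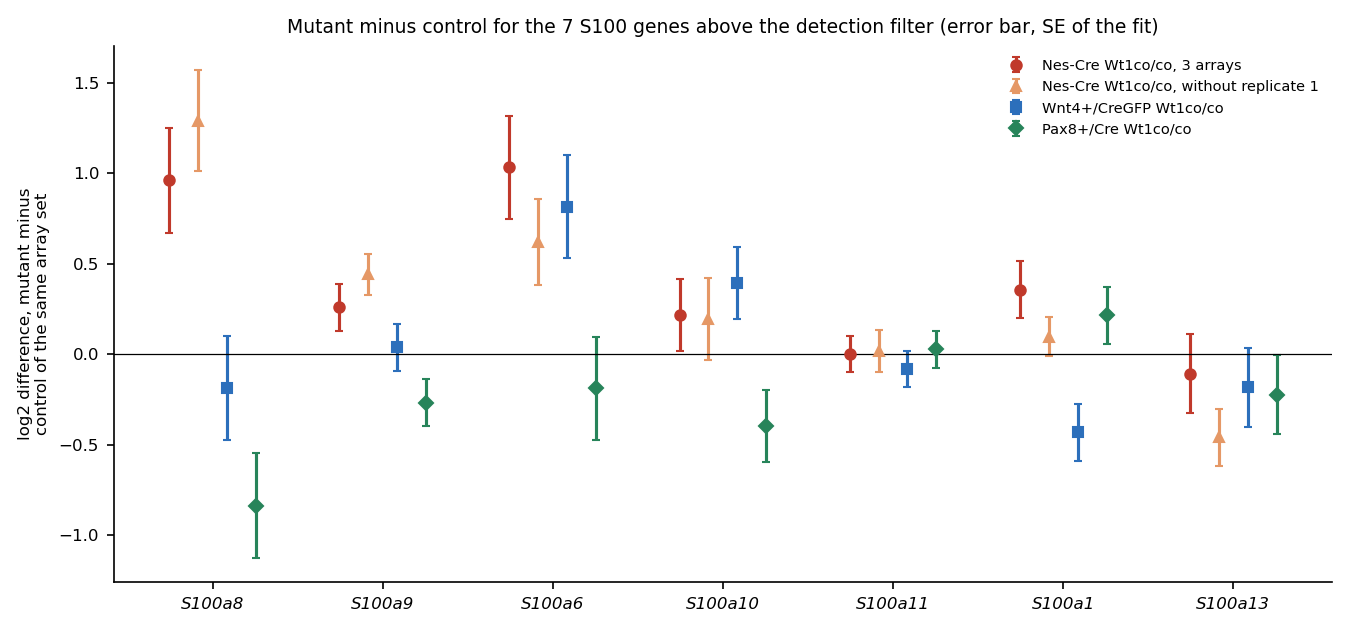
Log2 difference, with its standard error as the bar, of the 7 tested S100 genes between each mutant and the control of its own set (Nes-Cre Wt1co/co also without replicate 1). S100a8 stands at +0.96 for Nes-Cre Wt1co/co and at -0.84 for Pax8+/Cre Wt1co/co, S100a6 at +1.03 and +0.82 for the Nes-Cre and Wnt4 mutants, and S100a11 near 0 in all.

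S100a6, or calcyclin, which is abundant in fibroblasts and in many epithelia, was higher in the Nes-Cre and Wnt4 mutants. In Wt1co/co it read 9.62, 9.63 and 9.82, and in Nes-Cre Wt1co/co 11.54, 9.91 and 10.71. The groups were apart, and replicate 1 was the highest array of the series for this gene. The difference was +1.03 (SE 0.29), 2.05-fold, and fell to +0.62 (SE 0.24), 1.54-fold, without replicate 1. In Wnt4+/CreGFP it read 9.16, 9.39 and 9.10, and in Wnt4+/CreGFP Wt1co/co 10.37, 9.70 and 10.02. These groups were apart too, by +0.82 (SE 0.29), 1.76-fold. In the authors' ratio values the differences were smaller, at +0.62 and +0.34, where the medians of all genes were -0.19 and -0.13. In Pax8+/Cre it read 8.07, 8.30 and 8.25, and in its mutant 7.63, 8.05 and 8.39, so that the mutants spread across the controls and differed by -0.19 (SE 0.29).

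For S100a6 the other controls of the Nes-Cre mutant gave the same sign. Against Nes-Cre kidneys, which read 8.51, 8.91 and 8.92, the Nes-Cre Wt1co/co kidneys differed by +1.94 (+1.53 without replicate 1), and with the sets cancelled by +1.45 (SE 0.40), or +1.04 without replicate 1. By group mean, the order ran from Nes-Cre Wt1co/co (10.72) through Wnt4+/CreGFP Wt1co/co (10.03), Wt1co/co (9.69), Wnt4+/CreGFP (9.22), wild type (9.19), Nes-Cre (8.78) and Pax8+/Cre (8.21) to Pax8+/Cre Wt1co/co (8.02). Neighbours were apart at 3 places, below Wt1co/co, below wild type and below Nes-Cre, and otherwise overlapped. The first and last of these places are borders between sets.

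The genes most like S100a6 were those of extracellular matrix. They were Spon2 (r = 0.94, 0.91 without replicate 1), which encodes the secreted protein spondin 2, and the small proteoglycan genes Dcn (0.92, 0.89 without it) and Lum (0.90, 0.83 without it). Lum read 8.11, 7.93 and 8.19 in Wt1co/co and 12.09, 8.81 and 9.41 in Nes-Cre Wt1co/co. In the Wnt4 pair it read 7.98, 8.14 and 8.03 in the control and 9.88, 9.04 and 8.86 in the mutant. In both mutants the array with the highest S100a6, replicate 1, also had the highest Lum. In the Pax8 pair Lum read 8.27, 8.30 and 8.15 in the control and 8.43, 8.72 and 9.04 in the mutant. It was apart and higher there by +0.49, while S100a6 overlapped and differed by -0.19. Interstitial stroma markers, a list that includes Dcn and Lum, were higher for 4 of 11 tested in Nes-Cre Wt1co/co (sums 14232 to 30664 against 11096 to 13172; 4 without replicate 1), for 4 in Wnt4+/CreGFP Wt1co/co (14585 to 17156 against 11136 to 12176; 9 without replicate 1) and for 1 in Pax8+/Cre Wt1co/co. Over all genes, 11.1%, 8.67% and 3.28% were called higher in the Nes-Cre, Wnt4 and Pax8 mutants. Without replicate 1, 26.7% and 27.1% were called in either direction in the Nes-Cre and Wnt4 mutants. The part of stroma in the S100a6 levels was not tested.

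**Figure D3:**
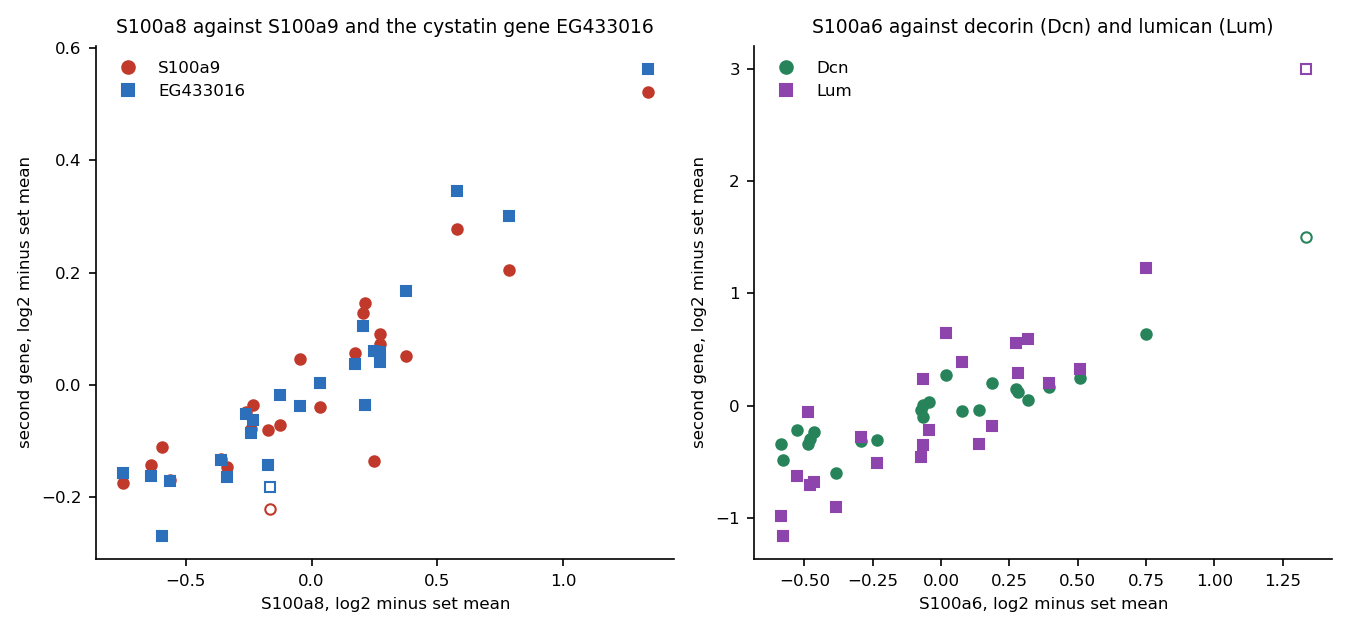
Set-centred log2 levels across 24 arrays, with S100a8 against S100a9 and EG433016 and S100a6 against Dcn and Lum; each point is an array, and open symbols mark Nes-Cre Wt1co/co replicate 1. The points rise together in each panel (r from 0.89 to 0.94), and replicate 1 is the farthest point for S100a6 but not for S100a8.

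S100a10, the annexin A2 partner also called p11, was lower in Pax8+/Cre Wt1co/co than in its controls. The controls read 9.21, 9.21 and 9.65 and the mutants 8.94, 9.07 and 8.88. The groups were apart and differed by -0.40 (SE 0.20). In the Wnt4 pair the controls read 9.58, 9.83 and 9.64 and the mutants 9.89, 9.83 and 10.52, a difference of +0.39 (SE 0.20) in groups that met at 9.83. In the authors' ratio values these differences were -0.14 in the Pax8 and +0.01 in the Wnt4 mutant. The medians of all genes there were +0.13 and -0.13. In Wt1co/co it read 9.16, 9.19 and 8.65 and in Nes-Cre Wt1co/co 9.26, 9.02 and 9.37, an overlap with a difference of +0.22 (SE 0.20). This was -0.10 with scaling to the 75th percentile and -0.22 in the authors' ratio values, where the medians of all genes were 0.22 and -0.19. Group means ran from 10.08 in Wnt4+/CreGFP Wt1co/co to 8.80 in Nes-Cre, and all neighbours in the order overlapped. Anxa2, the gene of its membrane partner, differed by +0.19, +0.09 and -0.19 in the Nes-Cre, Wnt4 and Pax8 mutants, and none of these was called by limma (adjusted p = 0.113, 0.576 and 0.230).

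S100a11, a partner of annexin A1, hardly differed in any mutant. It read 13.33 to 13.67 on the 18 arrays of the first 3 sets and 13.86 to 14.38 on the 6 arrays of the Pax8 set, a step that cannot be told apart from the set. The differences from the control were 0.00 in the Nes-Cre mutant, -0.08 in the Wnt4 mutant and +0.03 in the Pax8 mutant, each with an SE of 0.10. A single array, Pax8+/Cre Wt1co/co replicate 1 at 14.38, lay away from its replicates, which both read 13.86. Anxa1 was close to background and was called in no mutant (adjusted p = 0.827, 0.741 and 0.675).

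S100a1, known for its action on calcium handling in muscle, went in opposite directions in the Wnt4 and Pax8 mutants. Wnt4+/CreGFP read 10.99, 10.79 and 10.71 and its mutant 10.29, 10.44 and 10.47, which was apart and lower by -0.43 (SE 0.16). Pax8+/Cre read 10.66, 10.79 and 10.77 and its mutant 10.91, 10.83 and 11.12, which was apart and higher by +0.21 (SE 0.16). In Nes-Cre Wt1co/co the levels of 11.67, 10.84 and 10.94 overlapped with those of Wt1co/co, 10.69, 10.70 and 10.98. The difference of +0.36 (SE 0.16) came mostly from replicate 1 and was +0.10 without it. By group mean, Nes-Cre Wt1co/co was highest (11.15) and Wnt4+/CreGFP Wt1co/co lowest (10.40). Only the lowest group was apart from its neighbour, wild type (10.69), which belongs to another set.

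S100a13, whose product helps FGF1 to leave the cell, did not follow its head-to-head neighbour. In Wt1co/co it read 9.49, 9.10 and 8.91, and in Nes-Cre Wt1co/co 9.76, 8.61 and 8.79. With all arrays these overlapped and differed by -0.11 (SE 0.22). Without replicate 1 the other two mutant kidneys lay below every control, by -0.46. Wnt4+/CreGFP read 8.67, 8.89 and 9.04 and its mutant 8.63, 8.60 and 8.81, a difference of -0.18. Pax8+/Cre read 7.96, 7.86 and 7.84 and its mutant 7.45, 7.61 and 7.92, a difference of -0.22, again with overlap. The set-centred levels of S100a1 and S100a13 correlated at r = 0.39 over 24 arrays and at -0.05 over 23 without replicate 1.

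The levels of S100a13 also differed between sets. Group means ran from 9.16 in Wt1co/co, 9.05 in Nes-Cre Wt1co/co, 8.87 in Wnt4+/CreGFP and 8.68 in its mutant to 8.22 in Nes-Cre, 8.14 in wild type, 7.89 in Pax8+/Cre and 7.66 in its mutant. The order was apart at 2 places, each of them a border between sets. The difference of +0.84 between Nes-Cre Wt1co/co and Nes-Cre crosses such a border.

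S100a4, a fibroblast and macrophage gene also known as Fsp1, stayed at background. Its levels lay between 6.88 and 6.97 on all 24 arrays, where the lowest value of any gene was 6.80, and 1 array, a Pax8+/Cre Wt1co/co kidney, passed the detection threshold. A difference in S100a4 was not detectable at this signal.

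The number of the 7 genes past the threshold used for all genes (limma adjusted p under 0.05) is given as a description, because the choice of genes had used these values. It was 2 higher (S100a6 and S100a8) and 0 lower in Nes-Cre Wt1co/co, where 24.2% of all genes were called in either direction (11.1% higher and 13.1% lower). In Wnt4+/CreGFP Wt1co/co it was 0 in either direction (17.6% of all genes, 8.67% higher and 8.91% lower) and in Pax8+/Cre Wt1co/co 0 as well (6.96%, 3.28% higher and 3.68% lower). The spread of Nes-Cre Wt1co/co replicate 1 enters every comparison. Without it, the number was 2 higher (S100a8 and S100a9) and 1 lower (S100a13) in the Nes-Cre mutant (26.7% of all genes). S100a6 was then no longer past the threshold in that mutant. The number was 1 higher (S100a6) and 1 lower (S100a1) in the Wnt4 mutant (27.1%) and 1 lower (S100a8) in the Pax8 mutant (13.5%). Leaving out other arrays also changed the number that were higher in the Nes-Cre mutant, to 0 without Wt1co/co replicate 1, to 1 without Wt1co/co replicate 2 or Nes-Cre Wt1co/co replicate 3, and to 3 without Nes-Cre Wt1co/co replicate 2. Groups were apart for 2 genes in the Nes-Cre mutant (33.9% of all genes), 2 in the Wnt4 mutant (44.1%) and 4 in the Pax8 mutant (32.7%). Without replicate 1 the Nes-Cre mutant was apart for S100a9 and S100a13 as well, as were 53.6% of all genes. The median difference of the 7 was +0.26, -0.08 and -0.22 in the Nes-Cre, Wnt4 and Pax8 mutants, beside 0.00, 0.02 and 0.01 over all genes tested. Nothing about the 7 genes as a set is read from these counts.

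The Nes-Cre transgene on its own was compared with wild type, which is not one of the differences the genes were selected on, although results of it were known by then. None of the 7 genes was called by limma, in a comparison where 0.0386% of all genes were. S100a8 was lower in Nes-Cre by -0.67 (SE 0.29, unadjusted p = 0.0338, adjusted p = 0.609) and S100a6, at 9.27, 9.30 and 9.01 in wild type, by -0.41 (SE 0.29, adjusted p = 0.832). For both, all 3 Nes-Cre kidneys lay below all 3 wild type kidneys, as was the case in either direction for 17.6% of all genes. The other 5 differed by -0.13 to +0.13. In this design an exact permutation test of 3 against 3 cannot give a p below 0.1.

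Of 10 other S100 genes listed, 7 were in the table and 3 were tested. S100a16, a widely expressed member, rose in Nes-Cre Wt1co/co. It read 7.68, 7.73 and 7.79 in Wt1co/co and 8.02, 7.87 and 8.15 in the mutant, which was apart and higher by +0.28 (SE 0.07, limma adjusted p = 0.00628; 0.0135 without replicate 1). In the authors' ratio values, where the median of all genes in this comparison was -0.19, the difference was -0.08. It did not pass in the Wnt4 and Pax8 mutants (-0.06 and +0.01), and the difference between mutants was itself not past the threshold (adjusted p = 0.0638 against the Wnt4 and 0.128 against the Pax8 mutant). S100g, the calcium carrier calbindin-D9k of distal tubules and gut, was lower in Wnt4+/CreGFP Wt1co/co by -0.08 (adjusted p = 0.0149), at 6.88 to 6.92 against 6.97 to 6.99, close to background, with detection in 0 of 3 mutants and 2 of 3 controls. The size depended on the background step, at -0.37 (adjusted p = 0.00316) with no background correction and -0.88 (0.00206) when background was taken as the intensity at detection p 0.5, and that last setting also called S100g lower in the Pax8 mutant (-0.83, 0.00896). S100g turned to +0.09 with scaling to the 75th percentile in the Wnt4 mutant, and the call was lost without Wnt4+/CreGFP replicate 2 or Wnt4+/CreGFP Wt1co/co replicate 1. S100a14, an epithelial member, differed by +0.39 in Nes-Cre Wt1co/co (adjusted p = 0.0910), which was +0.05 without replicate 1. Of 8 genes for proteins with a fused S100 domain, such as those of the hair and skin, 4 were in the table and 1 (Tchhl1) was tested, and it was not called (in the Wnt4 mutant it was called lower, by -0.07, when Nes-Cre Wt1co/co replicate 1 was left out).

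Genes of the receptors and binding partners of the 8 proteins were read as a list of 45, of which 44 were in the table and 30 were tested. In Nes-Cre Wt1co/co 3 were higher and 3 lower, a share to be read against the 24.2% of all genes. Myd88, the adaptor that carries the signal of TLR4, rose from 9.77, 9.79 and 9.92 to 10.43, 10.26 and 10.24, by +0.49 (SE 0.07, limma adjusted p = 6.91e-05; 0.00024 without replicate 1). Ly96, the co-receptor MD-2 of TLR4, rose from 8.05, 7.75 and 7.73 to 8.74, 8.06 and 8.18, by +0.48 (adjusted p = 0.0179). The call for Ly96 was lost without Nes-Cre Wt1co/co replicate 1 (+0.28, adjusted p = 0.0772) and without any 1 of Wt1co/co replicates 2 and 3 (0.0636 and 0.0632). Tlr4 itself was detected in none of these groups. Ager, the gene of RAGE, differed by -0.05 in each of the 3 mutants and passed in none (adjusted p = 0.115, 0.177 and 0.218). In the authors' ratio values, where the median of all genes in the Nes-Cre mutant was -0.19, neither Myd88 (+0.08) nor Ly96 passed. Ly96 and Myd88 are also expressed by macrophages, whose markers were higher in the same mutant, and the part of this in their levels was not tested.

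Ahnak, a giant scaffold protein that binds the complex of S100A10 and annexin A2, had the largest difference of the 3 partners that rose. It read 7.71, 7.89 and 8.08 in Wt1co/co and 10.15, 8.19 and 8.64 in Nes-Cre Wt1co/co, apart and higher by +1.10 (SE 0.30, adjusted p = 0.0137). Replicate 1 stood out here, and without it the difference was +0.53 (adjusted p = 0.00978). The call was lost without Wt1co/co replicate 1 (+1.01, adjusted p = 0.0589) and in the authors' ratio values (+0.61, beside a median of -0.19 over all genes). The 3 partners that fell in this mutant were Alcam, Anxa11 and Stip1, and all 3 calls were lost without Nes-Cre Wt1co/co replicate 1. Alcam, a cell adhesion molecule named as a receptor of S100 proteins, read 8.88, 8.95 and 8.50 in Wt1co/co and 7.28, 8.14 and 8.42 in the mutant, by -0.83 (adjusted p = 0.0144; -0.50 and 0.0607 without replicate 1), and the call was also lost without Wt1co/co replicate 1 or 2 (0.0579 and 0.0565). Anxa11, a partner of S100A6, read 10.01, 9.47 and 9.41 and then 8.42, 9.38 and 9.06, by -0.68 (adjusted p = 0.0232; 0.111 without replicate 1; 0.135 without Wt1co/co replicate 1). Stip1, a co-chaperone that S100 proteins bind, read 11.39, 11.16 and 11.26 and then 10.68, 10.90 and 11.04, by -0.40 (adjusted p = 0.0144; 0.0621 without replicate 1; 0.0751 without Wt1co/co replicate 1).

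In the Wnt4 mutant 2 of the 30 were higher and 0 lower, beside 8.67% and 8.91% of all genes, and in the Pax8 mutant 0 either way, beside 6.96%. The pair in the Wnt4 mutant were Dlc1 (+0.07, adjusted p = 0.0420) and Ppfibp1 (+0.16, adjusted p = 0.0140), both near background with detection in 2 of 3 mutants. Both calls were lost on leaving out single arrays, Ppfibp1 without any 1 of Wnt4+/CreGFP replicates 1 and 3 (0.0586 and 0.0637) or of Wnt4+/CreGFP Wt1co/co replicates 1 and 2 (0.0859 and 0.0571). Without Nes-Cre Wt1co/co replicate 1, Mcam, another adhesion molecule that binds calprotectin, fell in all 3 mutants, by -0.44, -0.53 and -0.42 in the Nes-Cre, Wnt4 and Pax8 mutants (adjusted p = 0.0161, 0.00216 and 0.0201). With all arrays it passed in none, and replicate 1 read 9.43 where the other Nes-Cre Wt1co/co kidneys read 7.75 and 7.97. Atp2a2, the gene of SERCA2 and a partner of S100A1, likewise read 11.68 on replicate 1 against 8.69 and 8.65. Without it, Atp2a2 fell by -0.35 in the Nes-Cre mutant and by -0.29 in the Wnt4 mutant (adjusted p = 0.00789 and 0.0108).

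**Figure D4:**
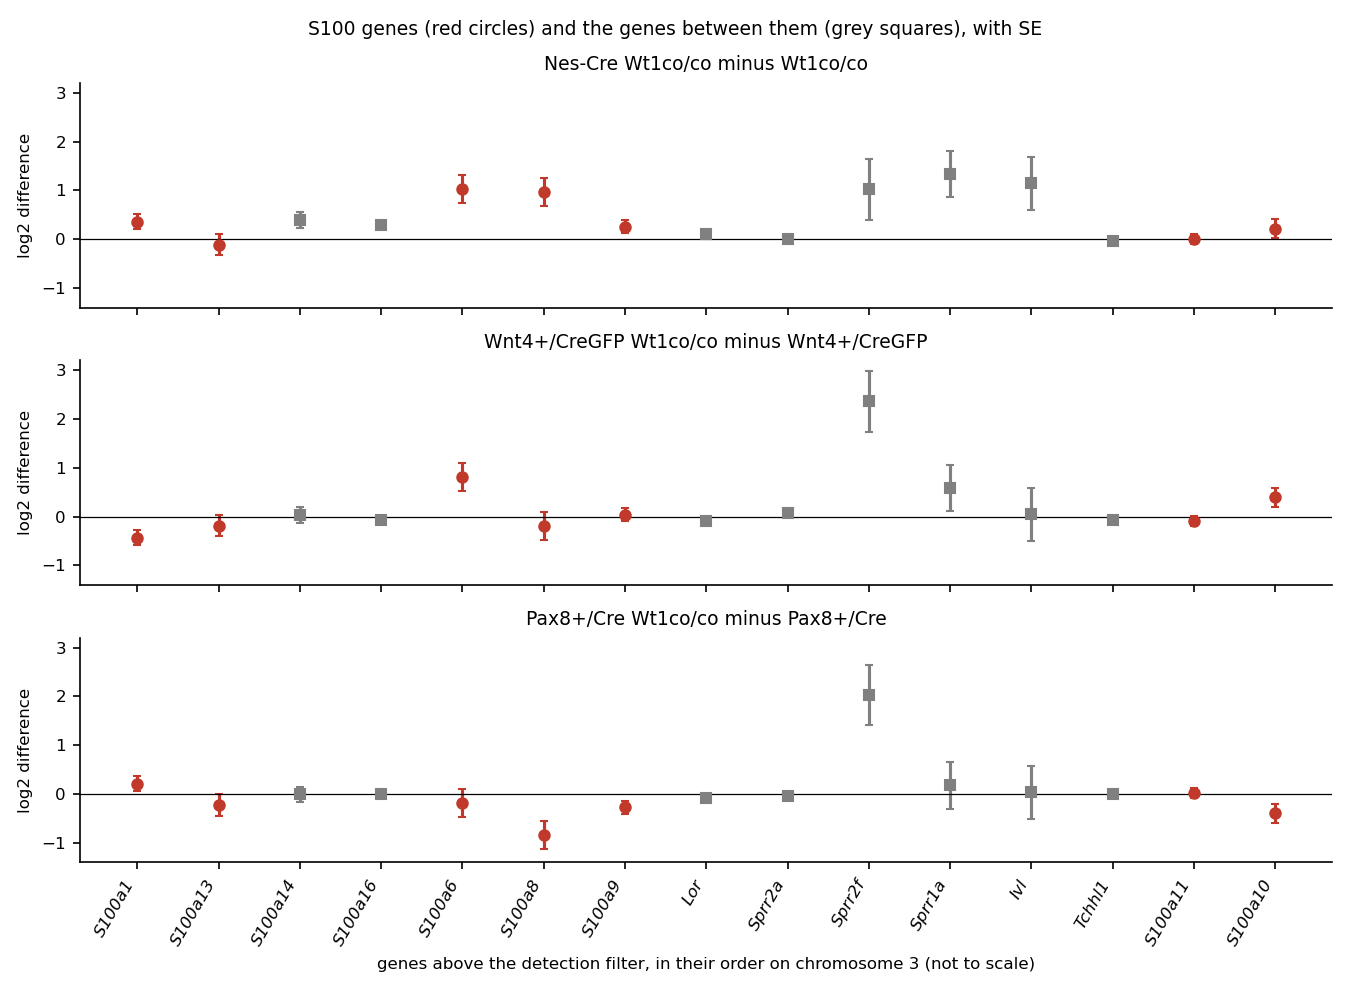
Log2 difference with its standard error (y axis) for the 15 tested genes from S100a1 to S100a10 in their order on chromosome 3 (x axis, order only), with a panel for each mutant; the 7 S100 genes of the set are red and the 8 others grey. Sprr2f stands at +2.36 in the Wnt4 mutant and at +2.03 in the Pax8 mutant.

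Between S100a1 and S100a10 the RefSeq annotation orders 70 protein-coding genes, most of them of the cornified envelope of skin. The table held 52 of them and 15 were tested, 8 of these outside the set. S100a6, S100a8 and S100a9 lie close together in this order (places 9, 11 and 12), yet their differences did not run in parallel, since S100a6 was higher in the Wnt4 mutant while S100a8 and S100a9 differed by -0.19 and +0.04. Of the 8 others, S100a16 was higher in Nes-Cre Wt1co/co and Sprr2f, of a family of small proline-rich envelope proteins, in Wnt4+/CreGFP Wt1co/co. Sprr2f read 7.87, 9.33 and 8.27 in Wnt4+/CreGFP and 10.54, 10.75 and 11.26 in its mutant, by +2.36 (SE 0.62, limma adjusted p = 0.0138). The call was lost without Wnt4+/CreGFP replicate 1 (0.0663) or 3 (0.0506) or without Wnt4+/CreGFP Wt1co/co replicate 3 (0.0552). In Pax8+/Cre it read 8.25, 8.10 and 8.48 and in its mutant 10.20, 10.23 and 10.48, a difference of +2.03 that did not pass (adjusted p = 0.0599). In Nes-Cre Wt1co/co it read 6.89, 10.71 and 9.57 against 8.03, 8.57 and 7.49. Sprr2 genes are near-identical copies, so that the probe may read more than 1 of them. Sprr1a differed by +1.33 in Nes-Cre Wt1co/co (adjusted p = 0.0510), and by +0.37 without replicate 1.

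The other likenesses, given as descriptions, named genes of mixed function. S100a1 was most like Rab7l1 (named Rab29 in RefSeq; r = 0.88, 0.76 without replicate 1), Hsd11b1 (0.84) and Hint3 (0.84). S100a10 was most like Srp14 (0.87), Taf13 (0.86) and Acadsb (0.81), and S100a13 most like Pde2a (0.85), Ermp1 (0.84) and Lss (0.84). S100a11 was most like Capn7, Htatsf1 and Phospho2, each at 0.69.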

How the data were processed

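Total RNA of whole kidneys at E18.5 was hybridised to Illumina MouseRef-8 v2 BeadChips, 1 array per sample. The authors deposited, per the file headers, a raw intensity and a detection p-value per gene and array, and a table of the authors' ratio values, in which the median of the 3 control arrays of each set is 1 for every gene. The methods name GeneSpring for the authors' analysis (version and settings: not given in the sources used here). Replicates 1 and 3 of groups are exchanged between the deposited intensity and ratio tables, and numbers here follow the intensities.

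Intensities were background-corrected with neqc (normexp with the background inferred from the detection p-value, offset 16), quantile normalised and put on the log2 scale. Genes with a detection p under 0.01 on at least 3 of 24 arrays were fitted in limma 3.58.1 (R 4.3.3) with a mean per group on all 24 arrays (16 residual degrees of freedom, prior 1.32), and p-values were adjusted by Benjamini-Hochberg over all 10371 genes. The median standard error was 0.08 on the log2 scale, and the number of arrays limits the precision. P-values set a group difference against the spread of arrays within groups, pooled over all 8 groups and moderated across genes. Ratio values were taken to log2 as an alternative. The fit was tested on simulated data. Sequences are those of RefSeq for GRCm38.p6. Figures were drawn with matplotlib 3.10.9.

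All 8 genes are named. Of the other S100 genes and partners, those past adjusted p 0.05 or known as direct partners are named, and for each tested member the 3 genes with the highest set-centred Pearson r. The first places on chromosome 3 and defining markers complete the rule, and Atp2a2, Mcam and Tchhl1 are named for their calls without 1 array. The members and lists were chosen with earlier results of these data known.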

Additional observations from a re-analysis of the deposited data

Results flagged for a closer look

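S100a8 and S100a1 were flagged because all kidneys of 1 mutant lay above their controls and all kidneys of another lay below theirs. Groups were apart in either direction for 33.9%, 44.1% and 32.7% of all genes in the Nes-Cre, Wnt4 and Pax8 mutants. For S100a8 the log2 difference was 0.962 in Nes-Cre Wt1co/co against Wt1co/co and -0.838 in Pax8+/Cre Wt1co/co against Pax8+/Cre. For S100a1 it was -0.431 in Wnt4+/CreGFP Wt1co/co against Wnt4+/CreGFP and 0.214 in Pax8+/Cre Wt1co/co against Pax8+/Cre. The difference between the mutants was not tested in either case, since these contrasts were in view when the genes were chosen.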

How the results depend on the processing

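The counts given first are those of the report, S100 members called higher and lower (2 and 0 in the Nes-Cre mutant, 0 and 0 in the Wnt4 and Pax8 mutants) and other S100 genes and partners (4 and 3, 2 and 1, 0 and 0). Of settings other than leaving out 1 array, 119 counts stayed within 1.5 times and 41 moved, and the cause was not tested. The share of all genes called can move with the setting too, and for most settings it is not given here. Without Nes-Cre Wt1co/co replicate 1 it went from 17.6% to 27.1% in the Wnt4 mutant and from 6.96% to 13.5% in the Pax8 mutant. Nothing about the members is therefore read from these counts. With no background correction 2 others were lower in the Wnt4 mutant. With background taken as the intensity at detection p 0.5, 1 other was higher and 2 lower in the Wnt4 mutant and 1 lower in the Pax8 mutant. With scaling to the 75th percentile, which moved the median of all genes to 0.22 and 0.12 in the Nes-Cre and Wnt4 mutants, 17 others were higher in the Nes-Cre mutant, 0 and 0 in the Wnt4 mutant, and 1 member was lower in the Pax8 mutant. S100g then turned to 0.41 and Dlc1 to 0.40 in the Nes-Cre mutant and S100g to 0.0892 in the Wnt4 mutant. In the authors' ratio values, with medians of -0.19, -0.13 and 0.13, 0 members were higher in the Nes-Cre mutant and 1 lower in the Wnt4 mutant. The others were 0 and 5 in the Nes-Cre, 1 and 2 in the Wnt4 and 2 and 2 in the Pax8 mutant, and S100a16 turned to -0.0790 in the Nes-Cre mutant. With no detection filter 2 others were lower in the Wnt4 mutant, and with detection on at least 12 arrays 1 was higher and 0 lower. With only the arrays compared, 0 members and 0 and 0 others were called in the Nes-Cre mutant, 1 and 1 members and 0 and 3 others in the Wnt4 mutant, and 1 member lower in the Pax8 mutant. With array weights, 1 member was lower in the Nes-Cre mutant, 1 and 1 members and 5 others lower in the Wnt4 mutant, and 2 members lower and 3 and 6 others in the Pax8 mutant. With Nes-Cre kidneys in place of Wt1co/co as control 7 others were higher and S100a8 turned to -0.21; also without replicate 1, chosen after seeing the data, 5 were lower and Anxa11 turned to 0.14. With the array sets cancelled, 2 others were higher and 0 lower, and 2 were higher without replicate 1 as well.

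Leaving out each array in turn gave 0 to 3 members higher and 0 to 1 lower in the Nes-Cre mutant, 0 to 1 and 0 to 1 in the Wnt4 mutant and 0 and 0 to 1 in the Pax8 mutant. The others ran from 3 to 8 higher and 0 to 4 lower, from 0 to 2 and 0 to 4, and from 0 to 0 and 0 to 1. All counts for Nes-Cre against wild type stayed at 0. Summed over the arrays left out in turn, a call for a single other S100 gene or partner was lost 28 times, and no call changed sign. The genes concerned were Ahnak, Alcam, Anxa11, Dlc1, Ly96, Ppfibp1, S100g and Stip1, several of them with more than 1 array. The calls for S100a16 and Myd88 were kept throughout. Among the members the sign turned for S100a13 (-0.46 to 0.11) and S100a11 (-0.04 to 0.03) in the Nes-Cre mutant, S100a9 (-0.02 to 0.08) in the Wnt4 mutant, S100a6 (-0.37 to 0.01) and S100a11 (-0.15 to 0.11) in the Pax8 mutant, and S100a10 (-0.25 to 0.12) in Nes-Cre against wild type.

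Whether samples of the same replicate number were paired is not stated, and correlations over 3 arrays per group cannot settle it. Same-numbered deviations correlated at 0.060 to 0.098 in the Nes-Cre pair and at -0.334 to 0.028 in the other pairs. In the Nes-Cre pair every sample correlated best with its own number. With the replicate block 1 other was lower in the Nes-Cre mutant and 1 higher in the Wnt4 mutant, and the calls over all genes went from 2511 to 2032, 1823 to 1543, 722 to 422 and 4 to 4 in the Nes-Cre, Wnt4 and Pax8 mutants and Nes-Cre against wild type.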
